A study of Mus musculus with 18 samples.

Results

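The genes that import, fold, check and export proteins at the endoplasmic reticulum (ER) were followed in mouse splenic B cells through 49 members out of the 16545 genes measured. They comprise 9 chaperones and cofactors, 6 disulfide isomerases and lectin chaperones, 8 genes of ER-associated degradation, 7 stress sensors and transcription factors, 7 translocon genes, 4 genes of the signal recognition particle, 4 of the signal peptidase and 4 of the vesicle coat and the KDEL receptors. The members were taken by gene name, and all 49 were found. Purified B cells of the spleen were sequenced at day 0, day 1 and day 2 of stimulation with LPS, a component of bacterial walls that stimulates B cells by way of TLR4, with 3 libraries per genotype and day and 18 libraries in all. Per the methods of the study each replicate was 1 mouse on the C57BL/6 background, and the control mice (CON) were littermates with 1 Cre allele and both Zbtb24 alleles intact (Zbtb24+/+). The Zbtb24 B-CKO mice (B-CKO) were Zbtb24 loxp/loxp, and both groups carried the Cre allele, which acts in B cells and in B-CKO removes exon 2 of Zbtb24 with its translation start. The age and sex of these mice, and the LPS dose of the splenic cultures, are not given in the sources used here. No cultured cells without LPS were analysed here, so LPS and time in culture cannot be told apart in any comparison between days.

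Proteins bound for secretion or the cell surface are recognised by the signal recognition particle as they leave the ribosome, threaded through the Sec61 translocon into the ER, trimmed by the signal peptidase and folded by chaperones and disulfide isomerases. Chains that do not fold are pulled back out and degraded, a process called ER-associated degradation. When unfolded chains accumulate, 3 sensors in the ER membrane start the unfolded protein response. IRE1, encoded by Ern1, splices the messenger of the transcription factor XBP1. ATF6 is cut to release a transcription factor, and PERK, encoded by Eif2ak3, slows translation and favours the making of ATF4, which drives Ddit3, the gene of the pro-death factor CHOP. B cells that become plasma cells secrete antibodies in large amounts and are a textbook setting for XBP1 and an enlarged ER.

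The best known DNA elements of this response could be read in the promoters of 39 of the 49 members (RefSeq, GRCm38.p6, 250 bases before to 50 bases after the transcription start). Atf6, Derl1, Hyou1, Kdelr2, Manf, Sec11c, Sec61a1, Spcs3, Srp68 and Ssr2 are not in the promoter table. The ER stress element (ERSE, which is CCAAT, 9 free bases and CCACG, on either strand), bound by ATF6 and XBP1 together with NF-Y, was found in 9 of the 41 promoters of these 39 members (22.0%) and in 39 of all 32851 promoters (0.119%). The 9 genes were Hspa5, Hsp90b1, Creld2, Dnajc3, Pdia6, Calr, Canx, Derl3 and Syvn1. The ERSE-II (ATTGG, 1 free base and CCACG) occurred in Herpud1, and in Dnajb11 downstream of the start, which is 4.88% of the member promoters against 0.0365% of all. The UPR element core (TGACGTGG), which on its other strand begins with the same CCACG as the ERSE, occurred in Sec24d alone (2.44% against 0.676%). The cAMP response core (TGACGTCA) was in no member promoter and in 1.79% of all, and the amino acid response core of ATF4 (TGATGNAAN) was in Herpud1 and Kdelr1 (4.88% against 3.95%). These are matches of letters in a fixed window, binding was not measured, and the shares were not tested. Many members were chosen by name as known genes of the response these elements belong to. A larger share among them is therefore not independent evidence. The elements are shown here because several of the chaperone genes described next carry one, with the fixed letters in capitals and read along the strand of the gene.
Hspa5 (chr2:34772013-34772055, plus strand): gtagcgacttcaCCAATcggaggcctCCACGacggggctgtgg
Hsp90b1 (chr10:86705626-86705668, minus strand): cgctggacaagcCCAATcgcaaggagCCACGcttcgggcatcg
Creld2 (chr15:88819508-88819550, plus strand): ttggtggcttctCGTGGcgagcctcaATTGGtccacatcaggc
Dnajc3 (chr14:118937815-118937857, plus strand): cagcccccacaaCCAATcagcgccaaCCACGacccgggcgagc
Pdia6 (chr12:17266479-17266521, plus strand): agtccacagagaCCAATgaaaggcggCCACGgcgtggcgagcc
Calr (chr8:84847063-84847105, minus strand): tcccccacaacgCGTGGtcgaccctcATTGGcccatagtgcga
Canx (chr11:50325788-50325830, minus strand): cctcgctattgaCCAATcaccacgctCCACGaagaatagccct
Derl3 (chr10:75893230-75893272, plus strand): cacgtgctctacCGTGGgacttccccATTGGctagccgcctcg
Syvn1 (chr19:6046520-6046562, plus strand): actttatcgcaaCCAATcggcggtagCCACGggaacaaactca
Herpud1 (chr8:94386365-94386399, plus strand): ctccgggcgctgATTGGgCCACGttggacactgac
Sec24d (chr3:123267458-123267489, plus strand): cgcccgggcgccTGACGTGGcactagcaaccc

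Values are FPKM (fragments scaled to the length of the transcript and to the mapped fragments of the library), and a difference is a log2 change of FPKM + 1 with its standard error, called at an adjusted p under 0.05 (limma, Benjamini-Hochberg over all genes tested). Because FPKM is relative to the library, the RNA content of a cell was not measured, and a larger share of expressing cells cannot be told apart from more RNA per cell. Zbtb24 itself read 49.6, 49.6 and 37.1 FPKM in the CON libraries of day 0 and 14.3, 10.5 and 12.6 in the B-CKO libraries, and at days 1 and 2 the range was 13.4 to 18.8 against 9.23 to 11.7. The 5 B cell markers (Cd79a, Cd79b, Ms4a1, Pax5 and Cd22) were above 0 in every group and summed to 3386 to 4471 FPKM in CON at day 0, to 2016 to 2174 at day 1 and to 2098 to 2266 at day 2. Sums of 9 T cell markers stayed at or under 36.8 FPKM and of 8 myeloid markers at or under 10.01, with Mpo and S100a8 at 0 in some groups. Those of 6 erythroid markers reached 71.1 in a B-CKO library of day 0. The 6 plasma cell markers summed to 392 to 526 FPKM in CON at day 0, 354 to 392 at day 1 and 547 to 799 at day 2. The larger sum of day 2 was mostly Mzb1, with means of 162 ± 25.3 and 547 ± 95.4 FPKM at days 0 and 2, and Prdm1 was also higher, while the means of Sdc1, Irf4, Jchain and Tnfrsf17 were lower at day 2 than at day 0. In CON, 2 of the 6 were called higher and 2 lower over both days (26.5% and 30.3% of all genes). From day 1 to day 2, 5 were higher and 0 lower (20.1% and 24.8%). The B-CKO counts were 2 higher and 4 lower (27.0% and 30.7%), then 3 higher and 1 lower (21.7% and 24.0%). Between genotypes 0 of the 6 were called on any day (0%, 0.0993% and 0.0460% of all genes). Sdc1 was still lower in every B-CKO library at day 0 (2.89 to 4.29 against 5.42 to 6.11 FPKM) and day 2 (1.52 to 2.00 against 2.23 to 3.22). Of all genes, 3.87% and 11.1% did not overlap on these days. The other plasma cell markers overlapped on every day, as did Sdc1 at day 1. The 7 immediate early genes (Fos, Fosb, Jun, Junb, Egr1, Ier2 and Nr4a1) summed to 2740 to 4172 FPKM in CON at day 0 and to 153.8 to 160.4 at day 1, and all 7 fell, so that every comparison with day 0 below moved together with them. Their part in the results was not tested. Relative depth, read from the steps of the low values, was 0.887 to 0.913 at day 0 and 1.00 to 1.07 at days 1 and 2. Among the day 0 libraries, replicate 3 of both genotypes stood apart for many members, and in CON at day 2 replicate 2 did, as described where it matters.

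All 49 members were above 0 in all 18 libraries. Their median mean level in CON was 42.9 FPKM at day 0, 61.9 at day 1 and 77.6 at day 2, against medians of 3.89, 3.51 and 3.70 over all genes. The highest member was Hspa5 at day 0, with 432 ± 38.5 FPKM, and Calr at days 1 and 2, with 751 ± 22.9 and 662 ± 41.9. Members over 100 FPKM numbered 9, 15 and 20 at the 3 days. The lowest were Ern1, Creb3l2 and Sec24d, all under 5 FPKM at day 0. Rescaled to TPM, which sets every library to the same total, the 49 members summed to 7742 ± 596 in CON at day 0, 9554 ± 283 at day 1 and 10930.0 ± 845 at day 2 (SD, n = 3), or 1.23 times the day 0 level at day 1 and 1.41 times at day 2. In B-CKO the sums were 7794 ± 763, 9580.0 ± 163 and 10810.0 ± 269. The groups of genes did not share this course. The translocon sum rose from 660.0 ± 5.07 to 1117 ± 31.3 and 1539 ± 141 in CON, and the disulfide isomerases and lectin chaperones went from 1846 ± 345 to 3212 ± 108 and stayed there, at 3198 ± 171. The sensors and transcription factors went the other way, from 1314 ± 154 to 549 ± 8.96 and 656 ± 67.9, most of it Atf4 RNA. These sums are descriptions and were not tested.

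**Figure D1:**
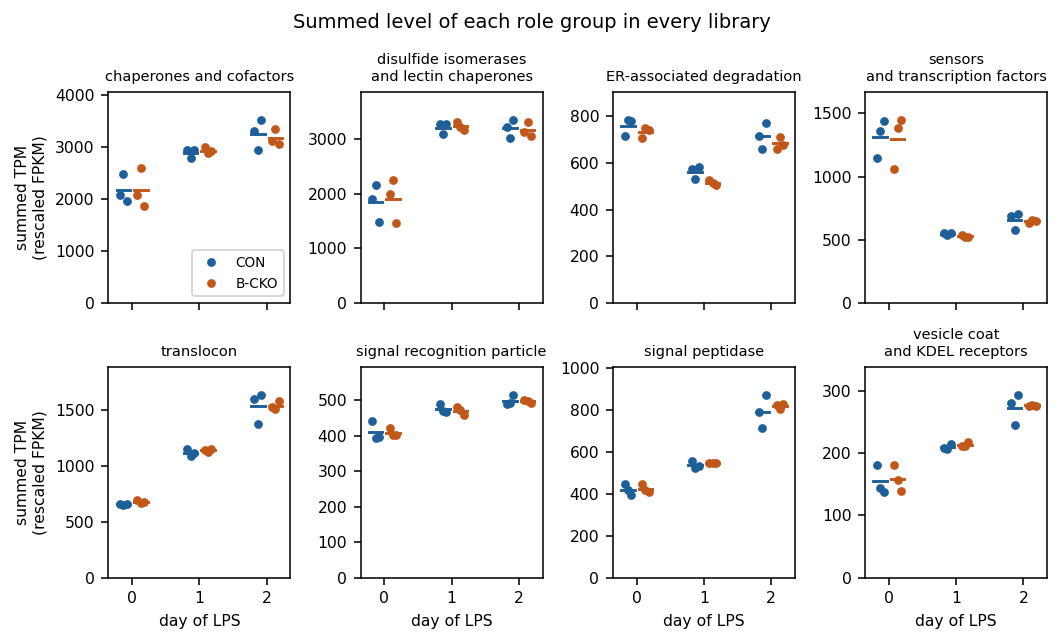
Summed TPM of each role group, from FPKM rescaled to the same total in each library (vertical axis, from 0), at days 0, 1 and 2, with 1 point per library and a short line at each mean of CON and B-CKO. The translocon and signal peptidase sums climb at both steps, while the sensors and transcription factors drop from 1314 to 549 in CON between day 0 and day 1.

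Between day 0 and day 1, 33 of the 49 members rose and 8 fell in CON, with a median log2 change of 0.64 over the members and -0.02 over all genes tested. Over all genes, 26.7% were called higher and 30.7% lower, so the balance among the members was toward higher values and that among all genes was not. At least 2-fold changes were called upward for 13 members and downward for 4, against 11.1% and 9.34% of all genes. B-CKO cells gave 33 higher and 9 lower (27.5% and 32.3% of all genes), with 12 and 5 at least 2-fold (11.6% and 9.95%). After rescaling to TPM the members at least 2-fold higher were 6 of 49 in CON and 7 of 49 in B-CKO. Over all genes these were 1548 of 15531 and 1612 of 15551, so at this size the members were near the share of all genes. Members called higher at any size in TPM were 30 of 49 in each genotype. Over all genes these were 3564 of 15531 in CON and 3742 of 15551 in B-CKO. From day 1 to day 2 the members moved less far. In CON 32 rose and 3 fell (20.1% and 24.8% of all genes), 3 of them at least 2-fold upward and 0 downward (2.11% and 0.534%), with a median of 0.32 against -0.005 over all genes. In B-CKO 32 rose and 2 fell (21.7% and 24.0%), with 4 and 0 at least 2-fold (2.50% and 0.846%). The same libraries compared over both days gave 38 higher and 4 lower in CON (26.5% and 30.3%), 22 and 4 of them at least 2-fold (10.4% and 9.22%). The B-CKO counts were 39 and 5 (27.0% and 30.7%), with 21 and 4 at least 2-fold (10.3% and 9.45%). With all 18 libraries in 1 fit, whose estimate of the spread includes day 0, 11 of the CON calls from day 1 to day 2 were lost (Calr, Canx, Derl1, Eif2ak3, Hsp90b1, Kdelr2, Pdia3, Pdia6, Sdf2l1, Sel1l and Srp68) and 10 of those of B-CKO (Calr, Creld2, Derl1, Eif2ak3, Hsp90b1, Pdia3, Pdia6, Sdf2l1, Sel1l and Syvn1). Without replicate 3 of CON at day 0, the counts from day 0 to day 1 were 32 higher and 9 lower.

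**Figure D2:**
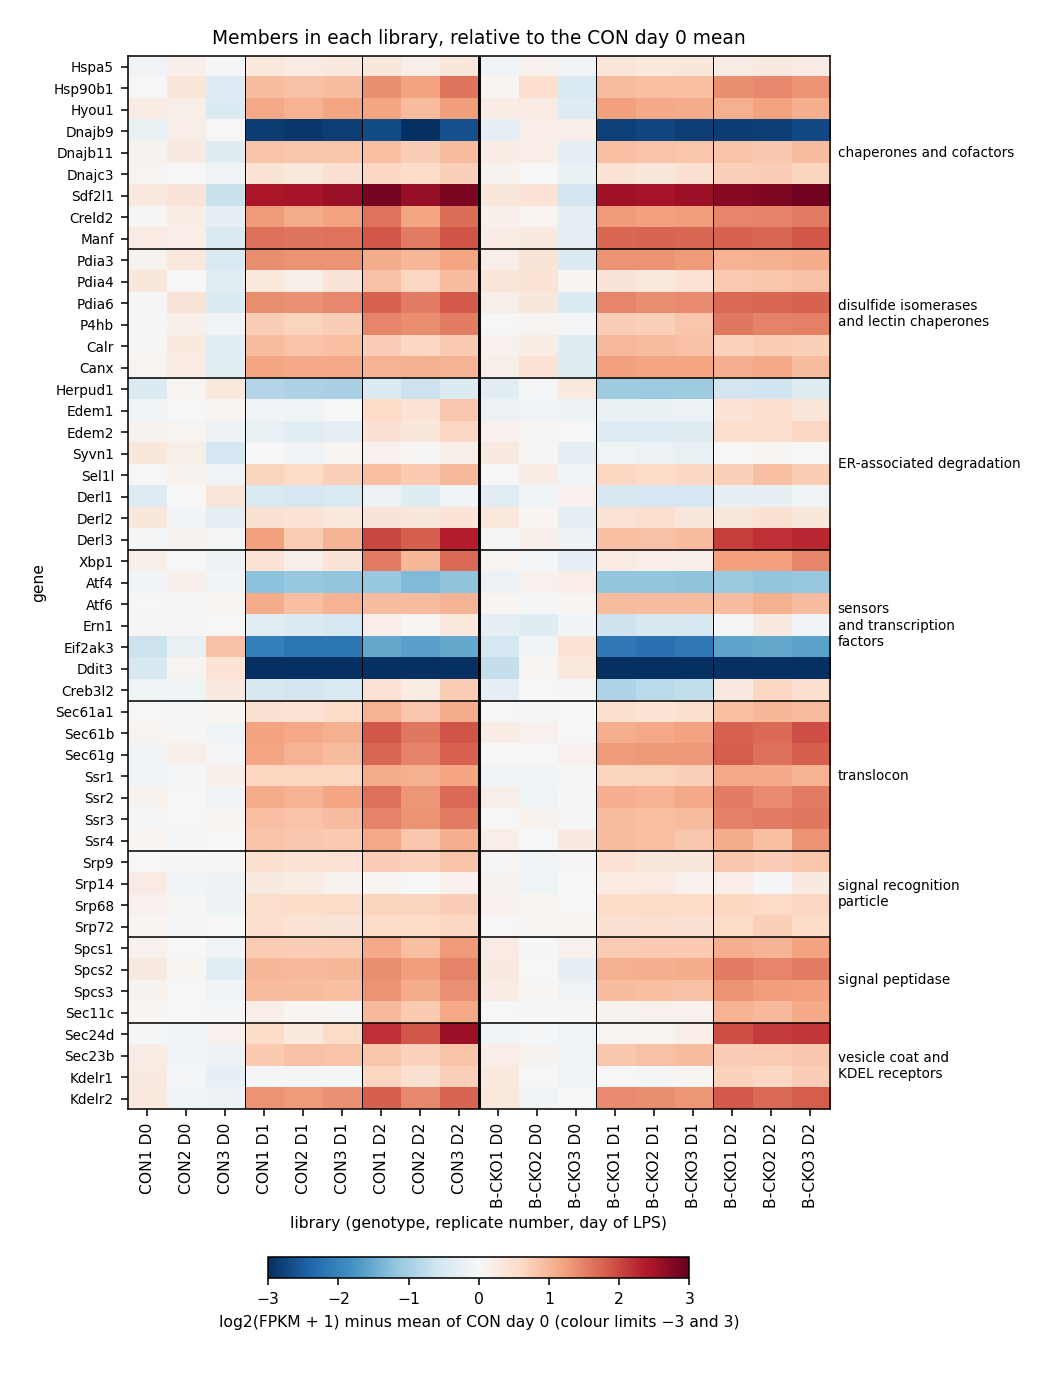
Level of each of the 49 members in each of the 18 libraries, as log2(FPKM + 1) minus the mean of that gene in CON at day 0 and with colours limited to 3 in either direction, with genes in rows by role and libraries in columns by genotype and day. Most chaperone, isomerase, translocon and signal peptidase rows go from low at day 0 to high at day 2, and Dnajb9, Atf4, Ddit3 and Eif2ak3 go from high to low in both genotypes.

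The clearest split lay among the chaperones. In CON, 8 of the 9 chaperones and cofactors rose at day 1 and Dnajb9 fell, and B-CKO gave the same counts. Hspa5, on chromosome 2, 34772090 to 34776529 (GRCm38), encodes BiP, the main HSP70 chaperone of the ER and the protein that holds the stress sensors inactive. It read 402, 476 and 419.9 FPKM at day 0, 539, 514 and 530.3 at day 1 and 549.7, 484 and 543 at day 2 in the CON libraries and 396, 469 and 406 FPKM at day 0, 551, 533 and 548 at day 1 and 502, 523 and 508 at day 2 in the B-CKO libraries. Day 1 lay above day 0 in every library of both genotypes, and day 2 overlapped with day 1 in CON. The change from day 0 to day 1 was small for a gene at this level, 0.29 ± 0.08 in CON (adjusted p = 0.0174) and 0.36 ± 0.08 in B-CKO (adjusted p = 0.00675), and from day 1 to day 2 it was -0.01 ± 0.06 in CON (adjusted p = 0.939). The CON call was lost without replicate 1 of day 1 (adjusted p = 0.0654) or replicate 3 (adjusted p = 0.0574) and after rescaling to TPM or by median ratios, where the change was 0.12 and 0.23. The B-CKO call was also lost after rescaling to TPM, where the change was 0.20 (adjusted p = 0.0908).

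Hsp90b1 encodes GRP94, the HSP90 of the ER, which folds integrins and Toll-like receptors. Its CON libraries held 239, 303 and 179.7 FPKM at day 0, 456, 431 and 445 at day 1 and 619, 545 and 723 at day 2, and its B-CKO libraries 245, 336 and 170.0 FPKM at day 0, 458, 441 and 443 at day 1 and 622, 644 and 598 at day 2. Every library of day 1 was above every library of day 0, and every library of day 2 above those of day 1, in both genotypes. The gene rose by 0.91 ± 0.18 and then by 0.49 ± 0.10 in CON (adjusted p = 0.00528 and 0.00624), and the B-CKO changes were 0.89 ± 0.23 and 0.47 ± 0.05 (adjusted p = 0.0150 and 0.000218). Both calls at day 2 were lost with all 18 libraries in 1 fit. Without replicate 1 of B-CKO at day 1, the adjusted p of the B-CKO rise from day 0 to day 1 was 0.0502. Sdf2l1, a member of the complex around the co-chaperone ERdj3, changed most among the chaperones that rose. Its libraries read 26.3, 28.1 and 13.1 FPKM at day 0, 121, 123 and 134 at day 1 and 162, 137 and 157 at day 2 in CON and 27.4, 28.5 and 14.1 FPKM at day 0, 130.0, 124 and 131 at day 1 and 149, 154 and 165 at day 2 in B-CKO. Replicate 3 was the lowest at day 0 in both genotypes, and no library of day 1 came near the day 0 values. The log2 change at day 1 was 2.50 ± 0.27 in CON and 2.47 ± 0.25 in B-CKO (adjusted p = 0.000390 and 0.000229), and the further 0.27 ± 0.07 in CON at day 2 (adjusted p = 0.0225) was lost when any 1 of 4 libraries was left out, with an adjusted p between 0.0707 and 0.0822.

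Dnajb9 encodes ERdj4, a J-domain cofactor of BiP that is itself counted among the strongest XBP1 targets. It fell while its partner rose. The CON libraries showed 116, 157 and 138 FPKM at day 0, 18.1, 17.3 and 18.4 at day 1 and 20.5, 15.7 and 20.9 at day 2, and the B-CKO libraries 113, 157 and 152 FPKM at day 0, 18.8, 19.6 and 18.3 at day 1 and 17.95, 18.4 and 19.9 at day 2. All values of days 1 and 2 lay far under those of day 0 in both genotypes. The fall at day 1 was -2.86 ± 0.11 in CON and -2.82 ± 0.13 in B-CKO (adjusted p = 9.02e-06 and 8.37e-06), with no call from day 1 to day 2 (0.07 ± 0.10 in CON, adjusted p = 0.643, and 0.20 with adjusted p = 0.0138 without replicate 2 of day 2). Among the other members of the group, Manf and Creld2, small stress-induced proteins that can leave the cell, rose by 1.63 ± 0.18 and 1.20 ± 0.13 in CON at day 1. Hyou1, the nucleotide exchange factor GRP170 of BiP, rose by 1.13 ± 0.17, the co-chaperone Dnajb11 by 0.84 ± 0.16 and the PERK-restraining co-chaperone Dnajc3 by 0.39 ± 0.08. At day 2 against day 1 in CON, Dnajc3, Hsp90b1 and Sdf2l1 were called higher, and in B-CKO Creld2 as well. The CON value of Creld2 was 0.30 ± 0.13 (adjusted p = 0.107) and became 0.46 (adjusted p = 0.00171) without replicate 2 of day 2, which read 67.2 FPKM beside 92.6 and 95.6. Manf was called at 0.24 (adjusted p = 0.00223) without that library and Dnajc3 was lost without replicate 2 of day 1 (adjusted p = 0.0522) or replicate 3 of day 2 (adjusted p = 0.0509).

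**Figure D3:**
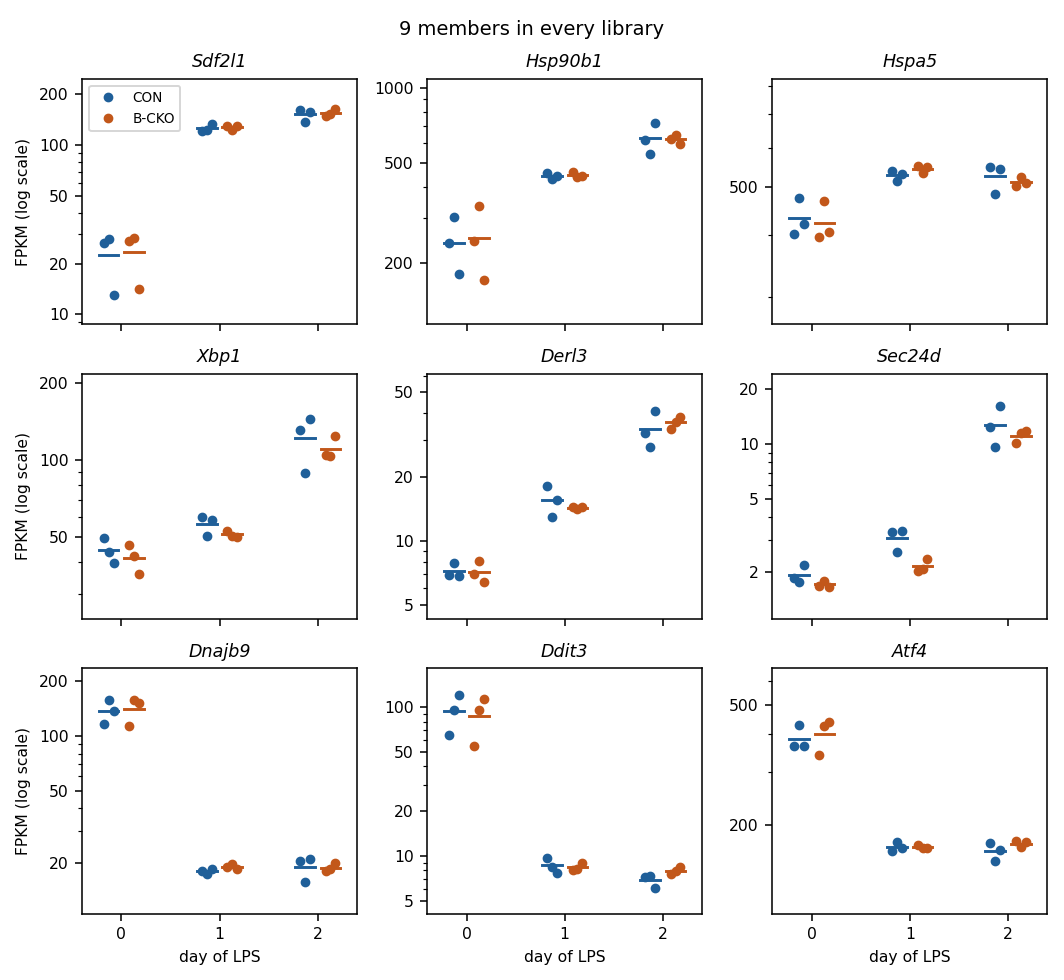
FPKM of 9 members (vertical axes, log scale) at days 0, 1 and 2, with 1 point per library and a short line at each mean of CON and B-CKO. Sdf2l1 rises at day 1, Xbp1, Derl3 and Sec24d reach their highest values at day 2, and Dnajb9, Ddit3 and Atf4 drop between day 0 and day 1, with the points of both genotypes in the same range apart from Sec24d at day 1 and Ddit3 at day 2.

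The disulfide isomerases and lectin chaperones rose at day 1 and then divided. Of the 6, 5 rose at day 1 in CON, and Pdia4, the isomerase ERp72, was not called (0.29 ± 0.17, adjusted p = 0.190, and called at 0.46 with adjusted p = 0.0263 without replicate 1 of day 0). At the second step in CON, P4hb, Pdia4 and Pdia6 rose, and Calr, Canx and Pdia3 fell. Those that fell are the 2 lectin chaperones calreticulin and calnexin and ERp57, the isomerase that works with them on glycoproteins. Pdia3 read 120.4, 139 and 81.6 FPKM at day 0, 293, 283 and 284 at day 1 and 240.1, 224 and 252 at day 2 in CON and 127, 145 and 83.1 FPKM at day 0, 282, 282 and 269.7 at day 1 and 231, 234 and 240.1 at day 2 in B-CKO. In both genotypes the day 2 libraries lay between those of day 0 and day 1 with no overlap. It rose by 1.36 ± 0.19 at day 1 in CON (adjusted p = 0.00109) and then fell by 0.27 ± 0.05 (adjusted p = 0.00394), and in B-CKO the changes were 1.26 ± 0.20 and -0.24 ± 0.04 (adjusted p = 0.00159 and 0.00165), with both falls no longer called in the fit of all 18 libraries. Calr fell by 0.18 ± 0.06 from day 1 to day 2 in CON and Canx by 0.11 ± 0.03, and both calls were lost when most of the libraries were left out 1 at a time (adjusted p up to 0.117 for Calr and 0.0939 for Canx) and after median-ratio scaling. In B-CKO Calr fell by 0.21 ± 0.05, and Canx was not called (-0.15 ± 0.05, adjusted p = 0.0626, and 0.0224 without replicate 2 of day 2).

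Pdia6, which in other cells also acts on the IRE1 sensor, had the largest change of the group at day 1. Its CON libraries read 83.3, 106 and 60.7 FPKM at day 0, 215, 211 and 223 at day 1 and 280.1, 236 and 294 at day 2 and its B-CKO libraries 91.4, 104 and 60.6 FPKM at day 0, 228, 216 and 217 at day 1 and 266, 269 and 279.9 at day 2. The days did not overlap in either genotype, and replicate 3 was again the lowest at day 0. The gene rose by 1.40 ± 0.19 and 0.31 ± 0.08 in CON (adjusted p = 0.00103 and 0.0175) and by 1.40 ± 0.19 and 0.30 ± 0.04 in B-CKO (adjusted p = 0.000853 and 0.000840), and the CON call at day 2 was lost when any 1 of 4 libraries was left out (adjusted p from 0.0514 to 0.0622). P4hb, the founding protein disulfide isomerase, changed most at the second step. It held 74.2, 86.1 and 72.4 FPKM at day 0, 130.3, 124 and 129 at day 1 and 217, 205 and 228 at day 2 in CON and 78.4, 81.9 and 73.8 FPKM at day 0, 130.4, 127 and 139 at day 1 and 233, 219.7 and 223 at day 2 in B-CKO. The 3 days were fully apart in both genotypes, with little spread within a day. In CON the steps were 0.72 ± 0.08 and 0.75 ± 0.04 (adjusted p = 0.000334 and 5.78e-05), and in B-CKO 0.75 ± 0.06 and 0.76 ± 0.04 (adjusted p = 7.85e-05 and 3.14e-05). Pdia4 followed at day 2, with 0.52 ± 0.09 in CON and 0.47 ± 0.04 in B-CKO.

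**Figure D4:**
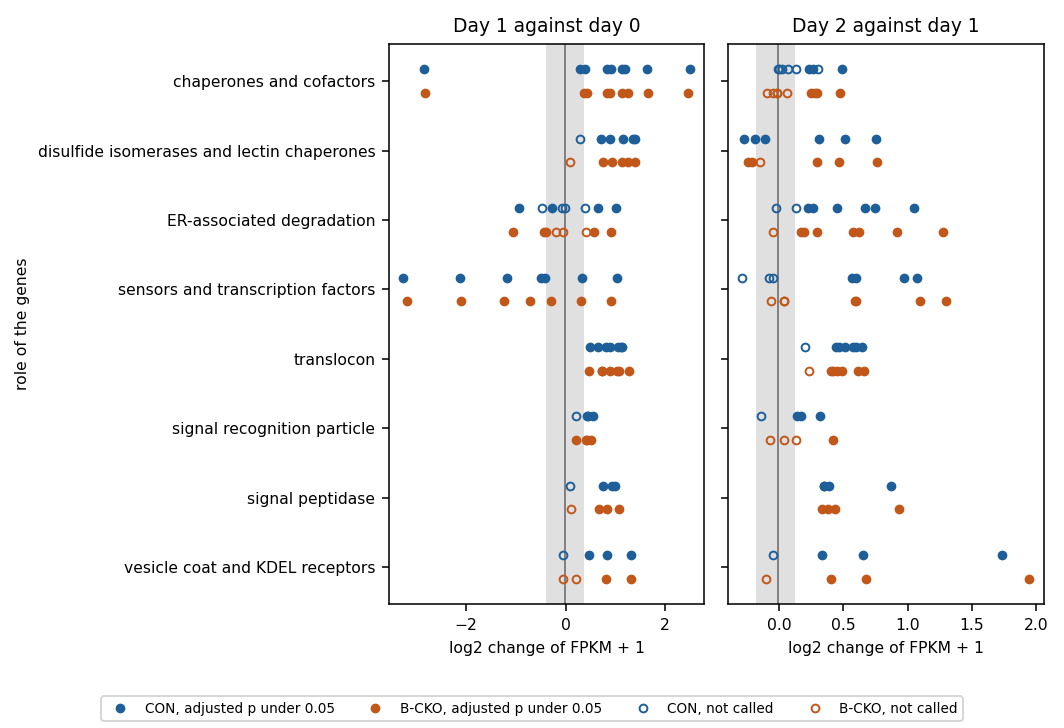
Log2 change of FPKM + 1 for each member (horizontal axis) by role (vertical axis), day 1 against day 0 on the left and day 2 against day 1 on the right, with CON and B-CKO in 2 colours, filled points where the adjusted p was under 0.05, and a grey band over the lower to the upper quartile of all genes in CON with a line at their median. At day 1 the sensors and the degradation genes spread to both sides while all 7 translocon genes lie to the right, and at day 2 Sec24d, Derl3, Xbp1 and Creb3l2 lie farthest to the right.

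Genes of ER-associated degradation were mixed at day 1 and rose at day 2. In CON, Derl3 and Sel1l rose at day 1, Edem2 and Herpud1 fell, and Edem1, Syvn1, Derl1 and Derl2 were not called. At day 2, 6 of the 8 rose in CON and 7 in B-CKO, with Derl2 not called in either. Herpud1 encodes a membrane scaffold of the HRD1 ubiquitin ligase. The CON libraries gave 82.0, 116 and 135 FPKM at day 0, 58.6, 55.5 and 54.9 at day 1 and 81.7, 69.5 and 81.6 at day 2, and the B-CKO libraries 85.9, 106 and 134 FPKM at day 0, 51.2, 50.3 and 51.8 at day 1 and 74.4, 71.9 and 84.0 at day 2. Day 1 was the lowest day in each genotype, and within day 0 the values ran from replicate 1 as the lowest to replicate 3 as the highest in both. It fell by 0.94 ± 0.18 in CON at day 1 (adjusted p = 0.00431) and rose by 0.45 ± 0.07 at day 2 (adjusted p = 0.00183), with B-CKO at -1.05 ± 0.15 and 0.57 ± 0.06 (adjusted p = 0.00113 and 0.000290). Its promoter is the only one of the group with the ERSE-II shown above. Derl3, a derlin of the channel that returns proteins to the cytosol, and the one of secretory tissues, rose at both steps. It read 6.90, 7.86 and 6.86 FPKM at day 0, 18.2, 12.9 and 15.7 at day 1 and 32.0, 27.6 and 40.9 at day 2 in CON and 6.95, 8.04 and 6.43 FPKM at day 0, 14.4, 14.1 and 14.5 at day 1 and 33.8, 36.3 and 38.4 at day 2 in B-CKO. No libraries of neighbouring days overlapped. The changes were 1.00 ± 0.13 and 1.05 ± 0.16 in CON (adjusted p = 0.000942 and 0.00225) and 0.92 ± 0.09 and 1.28 ± 0.05 in B-CKO (adjusted p = 0.000203 and 1.06e-05).

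The mannosidase-like proteins Edem1 and Edem2, which mark misfolded glycoproteins, rose by 0.67 ± 0.09 and 0.74 ± 0.08 in CON at day 2, and Sel1l, the partner of the HRD1 ligase, by 0.23 ± 0.06. At day 1 the CON value of Edem1 was -0.06 ± 0.07 and that of Sel1l 0.66 ± 0.08. The fall of Edem2 at day 1 in CON (-0.28 ± 0.09, adjusted p = 0.0393) was lost when any 1 of 5 libraries was left out (adjusted p from 0.0786 to 0.130), whereas in B-CKO it was -0.43 ± 0.06 (adjusted p = 0.000825). Sel1l in B-CKO at day 2 (0.18 ± 0.06, adjusted p = 0.0430) was lost with the replicate number as a block (adjusted p = 0.0883) and when any 1 of 5 libraries was left out (adjusted p from 0.0521 to 0.133), and its CON call was lost without replicate 2 of day 1 (adjusted p = 0.0527). Syvn1, which encodes HRD1 itself, had a wide day 0, with 123, 110.1 and 67.7 FPKM in CON and 118, 100.3 and 80.0 in B-CKO. Its change at day 1 in CON was -0.02 ± 0.22 (adjusted p = 0.950), and without replicate 3 of day 0 it was -0.28 (adjusted p = 0.0316). In B-CKO the same omission gave -0.34 (adjusted p = 0.0183). Derl1 and Derl2 depended in the same way on replicate 1 of CON at day 0, without which Derl1 changed by -0.67 (adjusted p = 0.00410) and Derl2 by 0.57 (adjusted p = 0.00375). In B-CKO Derl1 was called lower at day 1. That call was lost when any 1 of 4 libraries was left out (adjusted p from 0.0576 to 0.0712). Derl2 was called in B-CKO only without replicate 1 of day 0 among these omissions (adjusted p = 0.0128).

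The sensors and transcription factors moved against the chaperones at day 1. In both genotypes 5 of the 7 fell (Atf4, Creb3l2, Ddit3, Eif2ak3 and Ern1), and Atf6 and Xbp1 rose. Eif2ak3, on chromosome 6, 70844484 to 70905241, encodes PERK. Its CON libraries read 34.9, 46.9 and 102 FPKM at day 0, 12.6, 11.3 and 11.6 at day 1 and 18.3, 17.2 and 18.5 at day 2, and its B-CKO libraries 37.7, 52.2 and 73.7 FPKM at day 0, 11.8, 10.99 and 11.6 at day 1 and 17.9, 18.4 and 17.4 at day 2. At day 0 replicate 3 was the highest in both genotypes, and every library of day 1 lay under every library of day 0. PERK RNA fell by 2.13 ± 0.37 in CON and 2.10 ± 0.22 in B-CKO at day 1 (adjusted p = 0.00301 and 0.000277) and rose by 0.57 ± 0.05 and 0.60 ± 0.05 at day 2 (adjusted p = 0.000275 and 8.55e-05), where the fit of all 18 libraries called neither. Atf4, the transcription factor downstream of PERK, was among the 5 highest members at day 0. It read 364, 429.6 and 365 FPKM at day 0, 165, 176 and 168 at day 1 and 174, 152 and 166 at day 2 in CON and 339, 424 and 439.6 FPKM at day 0, 171, 168 and 167 at day 1 and 176, 168 and 176 at day 2 in B-CKO. Days 1 and 2 lay well under day 0 and overlapped with each other. The fall at day 1 was -1.18 ± 0.08 in CON and -1.24 ± 0.10 in B-CKO (adjusted p = 5.28e-05 and 9.17e-05), and from day 1 to day 2 neither genotype was called (-0.05 ± 0.05 and 0.04 ± 0.03).

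Ddit3, on chromosome 10, 127290793 to 127296291, encodes CHOP and had the largest fall of all members. The CON libraries held 64.6, 95.99 and 122 FPKM at day 0, 9.67, 8.47 and 7.71 at day 1 and 7.20, 7.37 and 6.11 at day 2, and the B-CKO libraries 54.9, 95.8 and 113 FPKM at day 0, 8.04, 8.13 and 8.93 at day 1 and 7.56, 7.91 and 8.44 at day 2. At day 0 replicate 1 was the lowest and replicate 3 the highest in both genotypes, and no later library reached 10 FPKM. The change at day 1 was -3.27 ± 0.23 in CON and -3.19 ± 0.26 in B-CKO (adjusted p = 5.95e-05 and 7.80e-05). From day 1 to day 2 it was -0.28 ± 0.10 in CON (adjusted p = 0.0534, and 0.0421 without replicate 3 of day 1) and -0.06 ± 0.07 in B-CKO (adjusted p = 0.502). The CON fall was called with a pseudocount of 0.1, with genes of at least 1 FPKM, in TPM and with the replicate block. It was not called after median-ratio scaling or with all 18 libraries in 1 fit. Atf6, which encodes the ATF6 sensor, went the other way at day 1. It read 17.3, 16.4 and 18.1 FPKM at day 0, 38.5, 33.2 and 36.7 at day 1 and 33.4, 33.5 and 35.8 at day 2 in CON and 17.9, 16.6 and 18.1 FPKM at day 0, 34.4, 33.3 and 34.2 at day 1 and 33.8, 37.1 and 33.8 at day 2 in B-CKO. The day 1 libraries were all near or above 33 FPKM and those of day 0 all under 19. Its rise at day 1 was 1.03 ± 0.08 in CON and 0.92 ± 0.06 in B-CKO (adjusted p = 7.66e-05 and 2.64e-05), and no further change was called (-0.08 ± 0.06 and 0.04 ± 0.05).

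Xbp1, on chromosome 11, 5520641 to 5525993, rose mainly at the second step. Its libraries gave 49.7, 43.5 and 39.7 FPKM at day 0, 60.0, 50.4 and 58.4 at day 1 and 131, 88.8 and 145 at day 2 in CON and 46.8, 42.0 and 35.8 FPKM at day 0, 52.9, 50.7 and 50.1 at day 1 and 105, 104 and 124 at day 2 in B-CKO. Day 2 was above day 1 in every library, and at day 2 in CON replicate 2 was well under the other libraries. At day 1 the change was 0.34 ± 0.11 in CON and 0.30 ± 0.10 in B-CKO (adjusted p = 0.0327 and 0.0352), and each of these calls was lost when any 1 of 4 libraries was left out (adjusted p from 0.0735 to 0.111 and from 0.0766 to 0.111) and after rescaling to TPM. At day 2 it was 1.07 ± 0.18 in CON and 1.10 ± 0.07 in B-CKO (adjusted p = 0.00286 and 4.57e-05). The table has 1 value per gene, so the spliced form made by IRE1 was not measured. Ern1, the gene of IRE1, was among the lowest members. It read 2.36, 2.16 and 2.29 FPKM at day 0, 1.61, 1.47 and 1.28 at day 1 and 2.74, 2.38 and 3.04 at day 2 in CON and 1.67, 1.55 and 2.07 FPKM at day 0, 1.12, 1.35 and 1.26 at day 1 and 2.16, 2.94 and 2.11 at day 2 in B-CKO. Day 1 was the lowest day in both genotypes, and the differences were of about 1 FPKM. It fell by 0.42 ± 0.09 in CON and 0.30 ± 0.10 in B-CKO at day 1 (adjusted p = 0.00633 and 0.0342) and rose by 0.60 ± 0.09 and 0.59 ± 0.11 at day 2 (adjusted p = 0.00182 and 0.00366). The B-CKO fall was lost when any 1 of 4 libraries was left out (adjusted p from 0.0570 to 0.118). Creb3l2, an ATF6-like factor of the ER membrane, followed the same course, with 2.88 ± 0.673 FPKM at day 0, 1.72 ± 0.0794 at day 1 and 4.39 ± 1.01 at day 2 in CON. It fell by 0.50 ± 0.14 in CON and 0.72 ± 0.10 in B-CKO at day 1 and rose by 0.97 ± 0.13 and 1.30 ± 0.11 at day 2, and the CON fall (adjusted p = 0.0194) was lost when any 1 library of day 1 was left out (adjusted p from 0.0556 to 0.0701).

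The translocon rose as a whole at day 1, with 7 of 7 genes called higher in both genotypes, and 6 of 7 rose again at day 2 in both. Only Ssr4 was not called at the second step (0.21 ± 0.09 in CON and 0.23 ± 0.10 in B-CKO), and it was called in CON without replicate 2 of day 2 (adjusted p = 0.00281) and in B-CKO without replicate 2 of day 2 (adjusted p = 0.0193). Sec61b encodes the beta subunit of the Sec61 channel. It read 63.6, 61.7 and 54.5 FPKM at day 0, 140.4, 132 and 126 at day 1 and 220.2, 182 and 223 at day 2 in CON and 69.5, 65.0 and 59.2 FPKM at day 0, 128, 132 and 139 at day 1 and 207, 196 and 231 at day 2 in B-CKO. The 3 days were apart in both genotypes. It rose by 1.14 ± 0.08 and 0.64 ± 0.08 in CON (adjusted p = 5.38e-05 and 0.00105) and by 1.04 ± 0.07 and 0.66 ± 0.07 in B-CKO (adjusted p = 4.21e-05 and 0.000253). Ssr2 belongs to the translocon-associated protein complex, which assists the entry of some chains. The values were 47.8, 44.7 and 41.7 FPKM at day 0, 98.1, 92.5 and 102 at day 1 and 142, 113 and 147 at day 2 in CON and 51.0, 40.4 and 45.8 FPKM at day 0, 96.6, 93.3 and 100.1 at day 1 and 130.4, 122 and 134 at day 2 in B-CKO. Here too the days did not overlap, with replicate 2 the lowest at day 2 in both genotypes. The steps were 1.11 ± 0.07 and 0.44 ± 0.10 in CON (adjusted p = 4.00e-05 and 0.00982) and 1.07 ± 0.09 and 0.41 ± 0.05 in B-CKO (adjusted p = 9.11e-05 and 0.000482). Sec61g, the gamma subunit, rose by 1.06 ± 0.10 at day 1 in CON, and the pore subunit gene Sec61a1 by 0.48 ± 0.06. The remaining subunits of the associated complex, Ssr1, Ssr3 and Ssr4, rose by 0.64 ± 0.08, 0.89 ± 0.05 and 0.82 ± 0.05.

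Genes of the signal recognition particle changed by less. At day 1 in CON, Srp9, Srp68 and Srp72 rose, and Srp14, which pairs with Srp9 in the domain that pauses translation, was not called (0.20 ± 0.11, adjusted p = 0.181, and 0.32 with adjusted p = 0.0113 without replicate 1 of day 0). In B-CKO all 4 were called, Srp14 at 0.21 ± 0.07 (adjusted p = 0.0434), a call that was lost when any 1 of 5 libraries was left out (adjusted p from 0.0582 to 0.138). Srp9 read 44.6, 44.4 and 46.7 FPKM at day 0, 63.9, 60.6 and 61.2 at day 1 and 76.7, 73.2 and 82.4 at day 2 in CON and 46.0, 43.0 and 44.0 FPKM at day 0, 61.3, 57.6 and 57.5 at day 1 and 80.1, 76.0 and 81.3 at day 2 in B-CKO. The days stayed apart in both genotypes. Its steps were 0.44 ± 0.05 and 0.32 ± 0.05 in CON (adjusted p = 0.000451 and 0.00191) and 0.40 ± 0.05 and 0.42 ± 0.04 in B-CKO (adjusted p = 0.000726 and 0.000242). Srp68, which with Srp72 forms the core on the other side of the particle, held 36.6, 34.1 and 30.0 FPKM at day 0, 48.3, 49.2 and 50.3 at day 1 and 53.5, 53.6 and 56.2 at day 2 in CON and 36.6, 35.0 and 33.8 FPKM at day 0, 49.7, 50.7 and 51.1 at day 1 and 52.7, 51.5 and 51.7 at day 2 in B-CKO. All libraries of days 1 and 2 were above those of day 0. It rose by 0.54 ± 0.08 in CON and 0.51 ± 0.05 in B-CKO at day 1 (adjusted p = 0.00151 and 0.000191), and at day 2 it was called in CON (0.14 ± 0.03, adjusted p = 0.0116, lost after rescaling to TPM) and not in B-CKO (0.04 ± 0.03, adjusted p = 0.309). Srp72 rose by 0.44 ± 0.06 and 0.17 ± 0.04 in CON, and its B-CKO value at day 2 was 0.14 ± 0.05 (adjusted p = 0.0561, and 0.0465 without replicate 3 of day 2).

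The signal peptidase genes separated by step. Spcs1, Spcs2 and Spcs3, which encode accessory subunits, rose at both steps in both genotypes, while Sec11c, a catalytic subunit, was called at the second step alone. Spcs2 shares sequence with a pseudogene copy in the reference, so its reads may be divided. It read 39.0, 33.7 and 25.6 FPKM at day 0, 65.8, 64.3 and 65.1 at day 1 and 85.9, 78.7 and 92.8 at day 2 in CON and 38.9, 32.5 and 27.0 FPKM at day 0, 68.9, 69.9 and 70.9 at day 1 and 96.7, 90.8 and 96.7 at day 2 in B-CKO. Replicate 3 was the lowest at day 0 in both, and the days did not overlap. The changes were 0.99 ± 0.15 and 0.39 ± 0.06 in CON (adjusted p = 0.00142 and 0.00176) and 1.08 ± 0.13 and 0.43 ± 0.04 in B-CKO (adjusted p = 0.000408 and 0.000119). Spcs3 gave 24.5, 22.7 and 21.4 FPKM at day 0, 45.1, 44.0 and 43.9 at day 1 and 59.7, 50.7 and 60.2 at day 2 in CON and 26.8, 23.9 and 21.3 FPKM at day 0, 44.3, 43.5 and 42.6 at day 1 and 59.6, 56.3 and 55.1 at day 2 in B-CKO. The order of the days was the same as for Spcs2. It rose by 0.93 ± 0.07 and 0.35 ± 0.07 in CON (adjusted p = 6.03e-05 and 0.00539) and by 0.84 ± 0.09 and 0.38 ± 0.04 in B-CKO (adjusted p = 0.000241 and 0.000276). Sec11c was at 109.6, 106 and 100.5 FPKM at day 0, 121, 109 and 108 at day 1 and 208, 182 and 235 at day 2 in CON and at 106, 103 and 109 FPKM at day 0, 114, 116 and 115 at day 1 and 219.7, 207 and 235 at day 2 in B-CKO. The day 2 libraries were far above the rest, and those of days 0 and 1 lay close together. Its change was 0.10 ± 0.07 in CON at day 1 (adjusted p = 0.263) and 0.87 ± 0.09 at day 2 (adjusted p = 0.000465), with 0.11 ± 0.04 and 0.93 ± 0.05 in B-CKO (adjusted p = 0.0639 and 2.22e-05). The first of the B-CKO values was called without replicate 3 of day 0 (adjusted p = 0.0289). Spcs1 rose by 0.75 ± 0.07 and 0.35 ± 0.09 in CON, and its second call was lost without replicate 1 of day 2 (adjusted p = 0.0502).

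At the exit from the ER, the coat gene Sec24d had the largest rise of any member from day 1 to day 2. Sec24d is a cargo adaptor of the COPII coat of vesicles that leave the ER, and its promoter window holds the UPR element core shown above. That window lies at a start inside the gene, which RefSeq lists from 123264801 on chromosome 3. Its CON libraries read 1.85, 1.75 and 2.18 FPKM at day 0, 3.29, 2.58 and 3.35 at day 1 and 12.4, 9.69 and 16.3 at day 2, and its B-CKO libraries 1.68, 1.79 and 1.65 FPKM at day 0, 2.03, 2.08 and 2.34 at day 1 and 10.2, 11.5 and 11.8 at day 2. At day 1 the 3 B-CKO libraries lay under the 3 CON libraries, and at day 2 the genotypes overlapped. The gene rose by 0.47 ± 0.12 at day 1 in CON (adjusted p = 0.0137), a call lost without replicate 1 (adjusted p = 0.0544) or replicate 3 of day 1 (adjusted p = 0.0543) and after rescaling to TPM. In B-CKO that value was 0.22 ± 0.08 (adjusted p = 0.0529). At day 2 it rose by 1.74 ± 0.18 in CON and 1.95 ± 0.08 in B-CKO (adjusted p = 0.000359 and 1.07e-05). Sec23b, the partner of Sec24 proteins in the inner coat, held 26.0, 21.0 and 20.0 FPKM at day 0, 38.9, 41.6 and 41.2 at day 1 and 40.3, 36.8 and 41.0 at day 2 in CON and 25.8, 23.9 and 20.6 FPKM at day 0, 39.5, 41.7 and 44.0 at day 1 and 37.9, 38.6 and 39.9 at day 2 in B-CKO. It was higher on both later days than at day 0 in every library. It rose by 0.84 ± 0.10 in CON and 0.81 ± 0.09 in B-CKO at day 1 (adjusted p = 0.000644 and 0.000360) and was not called at day 2 (-0.04 ± 0.05 and -0.10 ± 0.05).

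The KDEL receptors, which bring escaped ER proteins back from the Golgi, differed from each other. Kdelr2 read 15.1, 10.9 and 10.8 FPKM at day 0, 32.4, 30.7 and 32.8 at day 1 and 44.5, 34.7 and 43.1 at day 2 in CON and 15.3, 11.4 and 11.97 FPKM at day 0, 34.0, 33.4 and 32.0 at day 1 and 45.8, 41.5 and 45.5 at day 2 in B-CKO. Every library of day 1 was above those of day 0 and under those of day 2. It rose by 1.33 ± 0.13 in CON and 1.31 ± 0.11 in B-CKO at day 1 (adjusted p = 0.000256 and 9.66e-05) and by 0.33 ± 0.09 and 0.41 ± 0.05 at day 2 (adjusted p = 0.0225 and 0.000576), and the CON call at day 2 was lost when any 1 of 5 libraries was left out (adjusted p from 0.0562 to 0.0803). Kdelr1 was not called at day 1 in either genotype (-0.05 ± 0.13 in CON, adjusted p = 0.747) and rose by 0.65 ± 0.07 in CON and 0.67 ± 0.04 in B-CKO at day 2 (adjusted p = 0.000376 and 3.81e-05).

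Set beside the promoter elements, the 9 members with an ERSE were called higher in 8 cases and lower in 0 at day 1 in CON, with Syvn1 not called and a median log2 change of 0.91. The 30 members in the promoter table without an ERSE gave 17 higher and 8 lower with a median of 0.44. Over all genes 26.7% were called higher and 30.7% lower. The largest rise of the 30, that of Sdf2l1 (2.50), was above the largest of the 9, that of Pdia6 (1.40). The 8 lower ones were Atf4, Creb3l2, Ddit3, Dnajb9, Edem2, Eif2ak3, Ern1 and Herpud1, of which Herpud1 has the ERSE-II. From day 1 to day 2 in CON there were 4 higher and 2 lower of the 9 (median 0.23) and 21 higher and 1 lower of the 30 (median 0.42), and in B-CKO 6 higher and 1 lower of the 9 (median 0.25) and 20 higher and 1 lower of the 30 (median 0.43). In B-CKO at day 1 the 9 gave 8 higher and 0 lower (median 0.92) and the 30 gave 17 and 8 (median 0.40). Of all genes, 27.5% were called higher and 32.3% lower in B-CKO at day 1. From day 1 to day 2 the shares were 20.1% and 24.8% in CON and 21.7% and 24.0% in B-CKO. The counts of members with and without an element are descriptions and were not tested.

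Among 63 other genes of the same pathways (other folding and degradation factors, translocation, vesicle traffic, the ATF6 proteases and outputs of PERK and ATF4), 27 rose and 15 fell in CON at day 1 with a median of 0.13, and 29 rose and 12 fell from day 1 to day 2 with a median of 0.19. In B-CKO the counts were 30 and 16, then 32 and 13. Over all genes 26.7% rose and 30.7% fell in CON at day 1, and 20.1% and 24.8% from day 1 to day 2. The shares in B-CKO were 27.5% and 32.3%, then 21.7% and 24.0%. Of the 16 other folding genes, 12 rose and 0 fell in CON at day 2. Fkbp11, a prolyl isomerase of secretory cells, rose by 2.18 ± 0.26 there, and Ero1b, an oxidase that feeds the disulfide isomerases, fell by 1.17 ± 0.14 at day 1 and rose by 0.72 ± 0.08 at day 2. The 12 outputs of PERK and ATF4 did not all follow Atf4 and Ddit3 at day 1, since 5 rose (Trib3, Asns, Chac1, Psat1 and Shmt2) and 3 fell (Ppp1r15a, Atf3 and Sesn2). Asns, the asparagine synthetase that ATF4 induces, went from 0.653 ± 0.0651 to 11.9 ± 1.85 FPKM, a rise of 2.95 ± 0.13 (adjusted p = 1.26e-05). Ppp1r15a, the phosphatase subunit that reverses the translation block of PERK, went from 349 ± 75.1 to 19.9 ± 1.12 FPKM, a change of -4.04 ± 0.16 (adjusted p = 8.68e-06).

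No member was called between the genotypes on any day. At day 0, day 1 and day 2, limma called 0 of 49 members between B-CKO and CON, against 0%, 0.0993% and 0.0460% of all genes. The day 0 test thus did not call even Zbtb24, at 37.1 to 49.6 FPKM in CON and 10.5 to 14.3 in B-CKO. A lack of calls on that day therefore does not show equal levels. The numbers with an unadjusted p under 0.05 were 0, 9 and 0 of the 49. Over all genes they were 313 of 15641, 2463 of 15104 and 1172 of 15210. The day 1 share of the members was thus near that of all genes. The 9 at day 1 were Manf, Herpud1, Edem1, Edem2, Syvn1, Creb3l2, Sec61g, Spcs2 and Sec24d. Whether the changes over time differed between genotypes was tested as an interaction, which called 0 of 49 members from day 0 to day 1 and 0 from day 1 to day 2 (0% and 0% of all genes), with 0 and 1 member (Srp68) at an unadjusted p under 0.05. Over all genes 467 of 16182 and 1158 of 15844 had such a p in the 2 interactions. Without replicate 2 of CON at day 2, 7 members had such a p between genotypes at day 2 (997 of 15053 genes). In the interaction from day 1 to day 2 these were 6 members (1031 of 15775 genes). Without replicate 3 the numbers were 2 (1131 of 15068 genes) and 5 (1493 of 15772 genes), with 0 members called in each case. The members whose 3 B-CKO and 3 CON libraries did not overlap numbered 2 at day 0 (4.08%, against 3.87% of all genes), 13 at day 1 (26.5%, against 20.1%) and 2 at day 2 (4.08%, against 11.1%). At day 0 these were Edem1 and Ern1, both lower in B-CKO. At day 1 Kdelr1, Manf, Sec61g, Spcs1, Spcs2 and Ssr1 were higher and Creb3l2, Edem1, Edem2, Herpud1, Pdia3, Sec24d and Syvn1 lower, and at day 2 Ddit3 was higher and Srp68 lower.

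**Figure D5:**
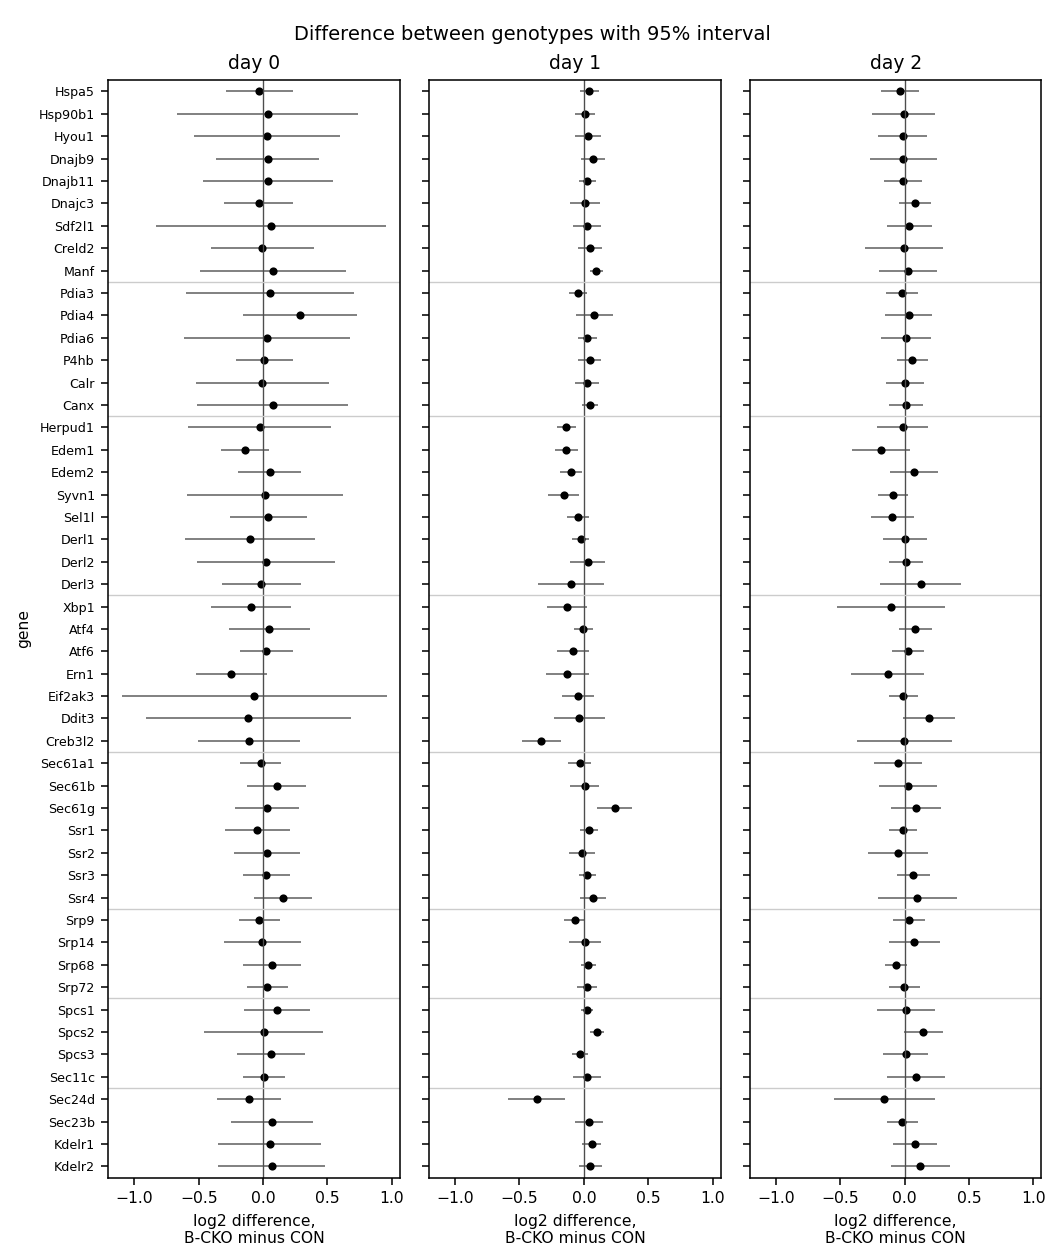
Log2 difference of FPKM + 1, B-CKO minus CON, for each of the 49 members by role at days 0, 1 and 2, with bars for the 95% interval. None of the points has an adjusted p under 0.05, and the bars are widest at day 0.

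The largest differences on any day were at day 1, in the low genes Sec24d and Creb3l2. Sec24d was at 3.29, 2.58 and 3.35 FPKM in CON and 2.03, 2.08 and 2.34 in B-CKO, a log2 difference of -0.37 ± 0.09 (adjusted p = 0.139). Creb3l2 read 1.75, 1.63 and 1.78 against 1.02, 1.18 and 1.30 FPKM (-0.33 ± 0.06, adjusted p = 0.0982). Sec61g had the largest difference toward B-CKO at day 1, with 70.8, 64.2 and 59.7 against 75.6, 76.9 and 77.2 FPKM (0.24 ± 0.06, adjusted p = 0.134). When genes that averaged under 1 FPKM were left out of the test, Sec24d (adjusted p = 0.0489) and Sec61g (adjusted p = 0.0424) were called. These are 2 of 49 members beside 388 of 9711 genes, a similar share. None of these 3 was called at day 2, where Sec24d differed by -0.16 ± 0.17 and Creb3l2 by -0.001 ± 0.16. The precision of the comparison varied by day. The 95% interval of the difference lay within 1.25-fold in either direction for 45 of the 49 members at day 1 and 40 at day 2, and within 1.5-fold for 48 and 49. At day 0 it did so for 16 and 37, because the replicates spread more there (median SD of the members 0.159 on the log2 scale in CON, against 0.0503 at day 1). Libraries with the same replicate number deviated together at day 0, and with that number as a block 44 and 49 members had such intervals. Again 0 were called, and 3 had an unadjusted p under 0.05 (891 of 15641 over all genes). The largest difference toward B-CKO on any day was that of Pdia4 at day 0 (0.29 ± 0.18, adjusted p = 1.00). For Xbp1 the difference at day 2 was -0.11 ± 0.18 (95% interval -0.53 to 0.32), for Hspa5 -0.04 ± 0.06 (-0.19 to 0.11) and for Ddit3 0.19 ± 0.09 (-0.02 to 0.39).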

How the data were processed

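RNA-seq values of 18 libraries (CON and Zbtb24 B-CKO, days 0, 1 and 2 of LPS, 3 each) were used. Per the methods, the authors mapped reads to mm10 with bowtie2, used Cufflinks and RSEM for abundance, and deposited FPKM for 16545 genes with 2 decimals, versions not given in the sources used here. The labels name an MGI2000 and the methods a HiSeq or Novaseq instrument. FPKM carry no counts, so depth in fragments is unknown, and the DESeq2 test of the study could not be applied. For 128 low genes, 77.3% of 991 values were whole multiples of a step within 0.1, which was too few to recover reads. Symbols and positions were matched for 16512 gene IDs (RefSeq, GRCm38).

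Genes above 0 in any compared library were tested on log2(FPKM + 1) with limma 3.58.1 in R 4.3.3 (lmFit, eBayes with a trend), over the 6 libraries of the groups compared or 12 for an interaction, with Benjamini-Hochberg adjustment and a threshold of 0.05. Interval widths are 95%. With this pseudocount of 1, changes of low genes are understated. Values in every library are given for Hspa5, the sensors and their factors, and per role for the 2 largest changes of CON from day 0 to 1 and the largest from day 1 to 2. Other members are given by means, changes and counts, and genes outside this rule that are singled out were chosen after their values were seen. The members and gene lists were chosen with earlier results of these data known. The sources give 1 mouse per replicate but do not say whether a number on different days is the same mouse. Deviations from the group means of same-numbered libraries correlated across 9997 genes at 0.854, 0.468 and 0.789 between genotypes at day 0, where these libraries deviated together. Between days 1 and 2 the values were 0.126, 0.183 and 0.117 in B-CKO and -0.0677, 0.147 and 0.0777 in CON. These are low, and deviations from a mean of 3 are not independent, so they cannot decide whether the numbers pair the days. In the other comparisons at least 1 of the 3 correlations was 0.1 or lower. Alternatives were a pseudocount of 0.1, a mean of at least 1 FPKM, TPM, median-ratio scaling, the replicate block, 1 fit of all 18 libraries and leaving out each library. The block with the 1 FPKM filter was added after seeing the data. Protein sequences were not used here, so a planned search for ER retrieval signals was not run, and 1 further B cell marker is not reported here. Promoters were searched in Python 3.11.15.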

Additional observations from a re-analysis of the deposited data

How the results depend on the processing

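No called member changed direction under any alternative run. Rescaling to TPM shifted the median change of genes of at least 1 FPKM from 0.017 to -0.14 between days 0 and 1 in CON and from -0.011 to -0.21 between days 0 and 2. With it the members at least 2-fold higher from day 0 to day 1 were 6 in CON and 7 in B-CKO, against 1548 of 15531 and 1612 of 15551 genes. The members lower from day 1 to day 2 were 5 in CON and 4 in B-CKO, against 4146 of 15178 and 3927 of 15253 genes. Those lower in CON from day 1 to day 2 (3) were 5 with only genes of at least 1 FPKM, 1 after median-ratio scaling and 0 with all 18 libraries in 1 fit, which also gave 0 in B-CKO. That pooled fit gave 24 and 25 members higher at this step, in CON and B-CKO.

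Between genotypes at day 1, 2 members were called with genes of at least 1 FPKM and 3 when the replicate block was added to this filter (Creb3l2, Sec24d and Sec61g). Over the 9711 genes tested the calls were 388 and 704, shares near those of the 49 members. With the replicate block alone the members called at day 1 numbered 0, and no count of members called moved by over 1.5 times. All genes called between genotypes went from 15 to 5 at day 1 and from 7 to 3 at day 2. Members with an unadjusted p under 0.05 went from 0 to 3 at day 0, 0 to 1 at day 2 and 1 to 2 in the interaction from day 1 to day 2. Over all genes those with such a p were then 891 of 15641, 1437 of 15210 and 1184 of 15844. Single calls changed with the block: Edem2 was lost and no gene gained from day 0 to day 1 in CON, Canx was lost and Ddit3 and Syvn1 gained from day 1 to day 2, Hspa5 was lost and Creb3l2 gained from day 0 to day 2, and in B-CKO Ern1 and Srp14 were lost at day 1 and Sel1l at day 2. Leaving out 1 library gave 1 to 3 members lower in CON from day 1 to day 2 (1 without replicate 1 of day 1 or of day 2) and 1 to 4 at least 2-fold higher there (1 without replicate 2 of day 1 or replicate 3 of day 2). From day 0 to day 1 it gave 30 to 36 higher and 6 to 9 lower in CON and 30 to 34 and 7 to 9 in B-CKO. The summed level of the members in B-CKO at day 2, 1.13 times day 1, was 1.21 times after median-ratio scaling and 1.20 times without Calr, Hspa5 and Hsp90b1. Without these 3 genes the CON sum at day 2 went from 1.145 to 1.209 times day 1. The sum at day 1 went from 1.234 to 1.153 times day 0 in CON and from 1.229 to 1.138 times in B-CKO. The cause of these shifts was not tested.

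Under all 13 settings planned for the change from day 0 to day 1 in CON, 30 members were called higher and 6 lower (Atf4, Ddit3, Dnajb9, Eif2ak3, Ern1 and Herpud1). From day 1 to day 2, 22 were called higher and 0 lower. With 3 libraries per group and a wide spread at day 0, small differences between genotypes at day 0 could not be told from 0. Low members such as Ern1, Creb3l2 and Sec24d rest on few fragments, whose number is unknown.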
